A study of Mus musculus with 2 samples.

Results

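The mitotic spindle and chromosome segregation genes described here are 40 genes chosen by symbol, of 19070 genes measured. All 40 were found once each in both libraries. They encode the cyclins and kinases that start mitosis, kinesin motors, spindle assembly factors, the chromosomal passenger complex and spindle checkpoint, cytokinesis proteins, and proteins of chromosome structure. Endometrial cells were taken on day 3 of pregnancy from Erbb3 f/f females, which carry the floxed allele and served as controls, and from Erbb3 d/d females, for which the labels state a deletion of Erbb3 in the stroma. There was 1 library per genotype, the driver of the deletion and the number of mice are not given in the sources used here, and so no test could be made between genotypes. Every interval below is a 95% interval that covers counting error only, and a difference between the libraries cannot be told apart from a difference between preparations.

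As background, cells make the RNA of these genes in late S phase, G2 and mitosis and clear it on entry into G1, and many of their transcripts together mark a dividing cell. In the uterus of the early pregnant mouse, estrogen first drives the luminal and glandular epithelium to divide, and the rise of progesterone then ends epithelial division and lets the stroma start to divide. ErbB3 is a receptor partner of the ErbB family that binds neuregulins and signals through other ErbB receptors.

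Many promoters of mitotic genes share a pair of short elements. One is the cell cycle genes homology region (CHR), which is bound by the MuvB complex through Lin54, and the other is the CCAAT box, which is bound by NF-Y. In the RefSeq promoter table (GRCm38.p6, 250 bases before to 50 after each start), 35 of the 40 members matched by symbol, with 37 promoters, and Aurkb, Ccna2, Kif20a, Pif1 and Tpx2 did not. TTTGAA or TTCGAA, the CHR letters searched on both strands, was found in 31 of the 37 (83.8%), against 19.2% of all 32851 promoters of the table. CCAAT, also searched on both strands, was found in 26 of the 37 (70.3%) against 37.4% of all. Both motifs were present in 62.2% of the members' promoters and 7.52% of all, and 1 pair of matches overlapped in the members. In the S phase genes described further on, 4 of 34 promoters (11.8%) held the CHR letters and 20 (58.8%) held CCAAT. A match is a description of letters and not a site.

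The 150 bases before the start are shown for 5 members on which the results turn, with CHR and CCAAT matches on either strand in capitals. Top2a and Ankle1 had most UMIs, Kif11 and Knstrn had the highest ratios of d/d over f/f, and Ube2c was among the lowest.
Top2a (chr11:99024190-99024339, minus strand): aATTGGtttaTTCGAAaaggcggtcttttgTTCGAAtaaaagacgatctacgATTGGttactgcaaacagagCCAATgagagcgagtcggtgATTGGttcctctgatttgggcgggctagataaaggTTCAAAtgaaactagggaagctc
Ankle1 (chr8:71405862-71406011, plus strand): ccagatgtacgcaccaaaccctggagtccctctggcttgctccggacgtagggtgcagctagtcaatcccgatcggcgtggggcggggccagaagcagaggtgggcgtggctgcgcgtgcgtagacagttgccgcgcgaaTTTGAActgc
Kif11 (chr19:37376232-37376381, plus strand): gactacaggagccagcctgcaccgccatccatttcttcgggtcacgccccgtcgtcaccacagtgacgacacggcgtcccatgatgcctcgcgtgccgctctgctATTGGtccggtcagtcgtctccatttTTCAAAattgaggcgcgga
Knstrn (chr2:118813853-118814002, plus strand): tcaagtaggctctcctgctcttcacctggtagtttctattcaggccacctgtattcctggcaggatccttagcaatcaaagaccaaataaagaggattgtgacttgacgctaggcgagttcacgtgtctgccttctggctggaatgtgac
Ube2c (chr2:164769779-164769928, plus strand): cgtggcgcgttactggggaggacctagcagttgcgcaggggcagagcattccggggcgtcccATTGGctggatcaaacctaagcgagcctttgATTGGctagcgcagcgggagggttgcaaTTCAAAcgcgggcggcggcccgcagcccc
The printed window held 3 CHR and 4 CCAAT matches in Top2a, 1 of each in Kif11, 1 CHR and 2 CCAAT in Ube2c and 1 CHR alone in Ankle1. In Knstrn neither set of letters was in the window.

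The libraries held 5783 barcodes with 6819591 UMIs (f/f) and 2125 barcodes with 2866862 UMIs (d/d). After removal of barcodes with fewer than 200 genes or over 10% mitochondrial UMIs, 5503 and 1830 cells remained, with medians of 809 and 764.5 UMIs. No full barcode was shared. The first 16 bases of 158 barcodes occurred in both libraries, and leaving these out moved 1 result, the count of members past 1.5-fold given below, from 0 to 2. Cells were gated by marker UMIs: a class needed 2 or more UMIs of its markers and 3 times as many as the next class. This gave 2151 f/f and 783 d/d epithelial-gated cells and 1290 and 276 stromal-gated cells, while 34.3% and 39.1% of cells stayed ungated. Of the epithelial-gated cells, 437 and 139 lay near the limits of the gate. The median epithelial-gated cell of either library held 5 epithelial marker UMIs and 0 of every other class. Erbb3 had 16 and 2 UMIs in stromal-gated cells (f/f and d/d), or 13.1 and 8.05 CPM, too few to check the deletion. In epithelial-gated cells it had 174 and 32 UMIs, or 79.5 and 44.9 CPM.

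The level of the module, which is the sum of the 40 members, was compared first by cell class. In epithelial-gated cells the f/f library held 9873 module UMIs, or 4512 CPM (UMIs scaled to the same total in each library, 4424 to 4602), and the d/d library 7813, or 10963 CPM (10721 to 11209). The ratio, given here and throughout as d/d to f/f on the log2 scale, was 1.28 (1.24 to 1.32). Stromal-gated cells held far less in either library, 443 CPM (407 to 482; f/f) and 1091 CPM (965 to 1228; d/d), a ratio of 1.30 (1.08 to 1.51). In both classes the d/d level was the higher one, and the intervals of the 2 ratios overlapped. Markers of other classes in stromal-gated cells moved with the stromal result. From f/f to d/d, lymphoid markers went from 227 to 813 CPM, myeloid from 249.6 to 503, epithelial from 548 to 877 and endothelial from 287 to 390, while mural markers were at 287 and 274 and mesothelial markers at 907 and 917. Their part in the result was not tested.

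The share of cells that held the module was then compared, with a module-positive cell defined as one with 3 or more module UMIs. Each cell was thinned to 500 UMIs so that the shares were compared at 1 depth. Among epithelial-gated cells 379 of 2148 f/f cells (17.6%, 16.1 to 19.3%) and 438 of 782 d/d cells (56.0%, 52.5 to 59.5%) were module-positive, a difference of 38.4 percentage points (34.4 to 42.2). Without thinning the shares were 19.7% and 59.8%. Of the stromal-gated cells, module-positive ones were 17 of 1282 (1.33%, 0.774 to 2.11%) and 12 of 276 (4.35%, 2.27 to 7.47%), and without thinning they were 3.41% and 9.06%. Endothelial-gated cells stood at 10.0% of 90 and 9.52% of 21, with intervals of 4.68 to 18.1% and 1.17 to 30.4%. Myeloid-gated cells stood at 2 of 44 (4.55%) and 6 of 22 (27.3%), with intervals of 0.555 to 15.5% and 10.7 to 50.2%. Lymphoid-gated cells stood at 1 of 8 and 0 of 5, and mural- and mesothelial-gated cells, at most 21 a library, held none.

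**Figure D1:**
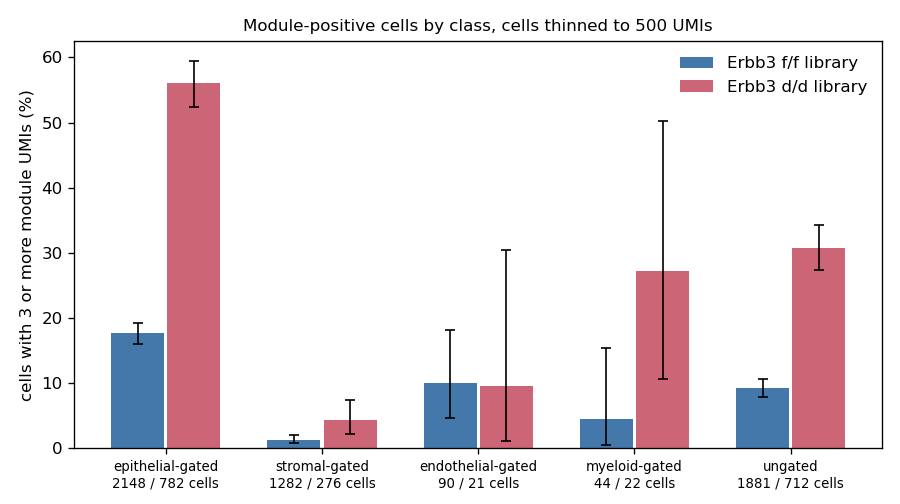
Share of cells (percent, y axis) with 3 or more module UMIs after thinning to 500 UMIs, by gated class (x axis, with f/f and d/d cell numbers), in the f/f library (blue) and the d/d library (red); bars are shares and whiskers 95% Clopper-Pearson intervals. The epithelial-gated bars stand at 17.6% and 56.0%, and the endothelial-gated bars at 10.0% and 9.52%.

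Nearly all module UMIs were in module-positive cells, a minority of the epithelial-gated cells in f/f (423 of 2151) and a majority in d/d (468 of 783). These held 9376 of the 9873 f/f and 7686 of the 7813 d/d module UMIs. An f/f positive cell held a median of 19 module UMIs (quartiles 12 and 29, highest 85) from 13 members, and a d/d positive cell held 14 (9 and 22, highest 57) from 11 members. The f/f positive cells were deeper, with a median of 1267 UMIs against 931 in d/d. Per UMI the libraries lay close together. The module made up 15515 CPM of the f/f and 16119 CPM of the d/d positive cells, a ratio of 0.06 (0.01 to 0.10). In cells with 0 to 2 module UMIs it was 314 and 538 CPM, a ratio of 0.78 (0.49 to 1.06). The libraries thus differed far more in how many cells held 3 or more module UMIs than in the level within those cells, a level to which the choice of cells itself contributes.

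**Figure D2:**
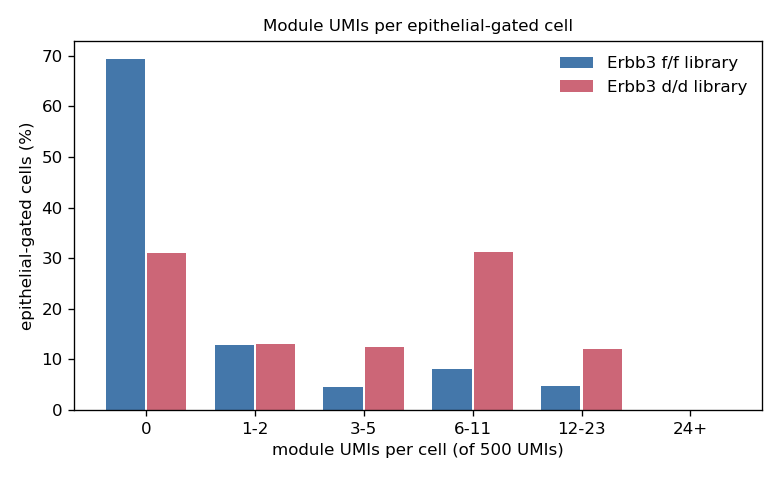
Percent of epithelial-gated cells (y axis) by the number of module UMIs they held after thinning to 500 UMIs (x axis), for 2148 f/f (blue) and 782 d/d (red) cells. Cells without any module UMI were 69.4% of f/f and 30.9% of d/d, and cells with 6 to 11 were 8.19% and 31.3%.

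Over all epithelial-gated cells, 39 members had 20 or more UMIs in the libraries together, and 38 of them were at least 1.5-fold higher in d/d, where 16.6% of the 10243 genes with as many UMIs were. The median ratio of the 39 was 1.21, against -0.02 over all genes. Kif14 alone of the 39 fell short of 1.5-fold, at 0.38. The members were chosen with a higher level of such genes in d/d already known, so these counts add no separate support.

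The next question was whether particular members differed within the module-positive epithelial-gated cells, 423 f/f and 468 d/d cells. Of the 39 members with 20 or more UMIs there, 0 were 1.5-fold apart, with Knstrn and Kif11 just under that limit at 1.49-fold each. Of the 8358 genes counted in the same cells 28.1% were (13.1% higher and 15% lower in d/d). Among the 2898 genes with as many UMIs as the members, from 111 to 1638, the share was 17.9%. The comparison is not a like one, since the cells were chosen on the members and not on the other genes. The members ranged from -0.55 to 0.58 with a median of 0.04, against -0.01 over all genes, and 28 of the 39 lay within 1.25-fold of equality. In 12 of 17 other ways of choosing and scaling the cells, 1 to 6 members passed 1.5-fold, most often Neil3 (lower in 10 of them) and Knstrn (higher in 4). The share of all genes past 1.5-fold is not given for those settings, so these counts cannot be set against it. The 6 came from the stricter gate, with 733 f/f and 275 d/d epithelial-gated cells.

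**Figure D3:**
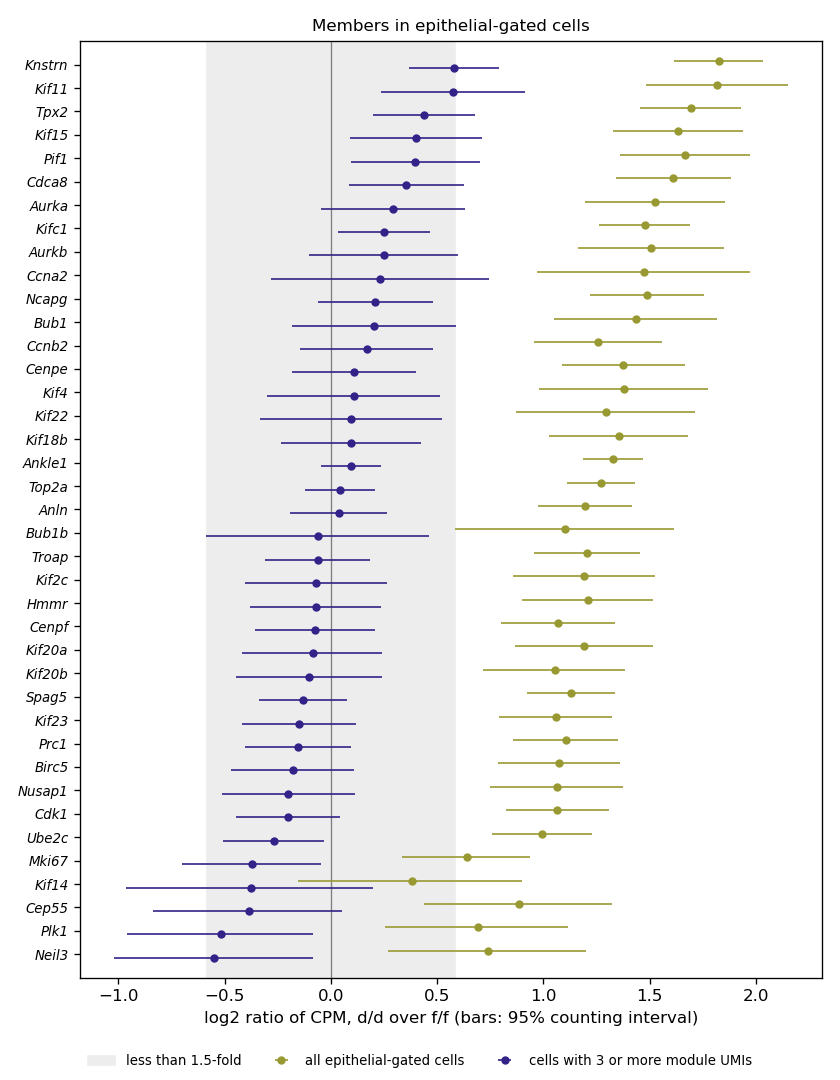
Ratio of CPM, d/d to f/f, on a log2 scale (x axis), of the 39 members with 20 or more UMIs (y axis), in all epithelial-gated cells (olive) and in cells with 3 or more module UMIs (indigo); whiskers are 95% counting intervals and the grey band marks ratios under 1.5-fold. The indigo points run from -0.55 (Neil3) to 0.58 (Knstrn), inside the band, and the olive points run from 0.38 (Kif14) to 1.82.

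The cyclins, Cdk1, Plk1 and Ube2c, which drive entry into and exit from mitosis, took 11.7% of the f/f and 10.1% of the d/d module UMIs in positive cells, with a summed ratio of -0.15 (-0.29 to -0.02). Plk1, the polo-like kinase of spindle poles and kinetochores, had 127 f/f and 70 d/d UMIs, or 210 and 147 CPM, at a ratio of -0.52 (-0.96 to -0.09). A Plk1 UMI was seen in 23.9% and 13.2% of the positive cells, a share that also depends on depth, which was lower in d/d. Ube2c, the ubiquitin-conjugating enzyme of the anaphase-promoting complex, had 374 and 245 UMIs, 619 and 514 CPM, at -0.27 (-0.51 to -0.03). Both intervals lay below 0, which held in 13 of 15 alternatives for Plk1 and 12 of 15 for Ube2c. With the stricter gate Plk1 stood at -1.16 (-2.01 to -0.36), and with 2 or more module UMIs Ube2c stood at -0.15 (-0.39 to 0.08). Cdk1, the kinase of mitotic entry, stood at 559 and 487 CPM (-0.20), Ccnb2, a B-type cyclin, at 306 and 344 CPM (0.17) and Ccna2, cyclin A, at 114 and 134 CPM (0.23), all with intervals that included 0. Ccnb1, the other B-type cyclin, had 2 UMIs over all f/f barcodes and 3 over all d/d barcodes, and was the member left uncounted.

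Among the 11 kinesins, motor proteins that move along or take apart microtubules, 6 had ratios above 0, and their sum was nearly equal in the libraries (0.10, 0.01 to 0.20). Kif11, the motor that pushes spindle poles apart, had 137 and 161 UMIs, or 227 and 338 CPM, at 0.57 (0.24 to 0.91). Kif15, which can share that task, had 170 and 177 UMIs, 281 and 371 CPM, at 0.40 (0.09 to 0.71). Kifc1, a minus-end motor that gathers spindle poles, stood at 606 and 719 CPM, at 0.25 (0.03 to 0.46), a direction that turned when cells were thinned before they were chosen. Kif14, a motor of the midbody, was the lowest kinesin, with 69 and 42 UMIs, or 114 and 88.1 CPM, at -0.37 (-0.96 to 0.20). The other 7 (Kif2c, Kif4, Kif18b, Kif20a, Kif20b, Kif22 and Kif23) lay between -0.15 and 0.11 with intervals that included 0.

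The spindle assembly factors held both the highest member and several near 0. Knstrn, an adaptor that joins kinetochores to the spindle, had 340 f/f and 401 d/d UMIs, or 563 and 841 CPM, and the highest ratio of the members, 0.58 (0.37 to 0.79). It was seen in 44.9% and 50.6% of the positive cells, a higher share in d/d despite the lower depth there. Tpx2, which activates Aurora A on the spindle, had 279 and 298 UMIs, 462 and 625 CPM, at 0.44 (0.20 to 0.68). Its partner Aurka stood at 248 and 304 CPM (0.29, -0.05 to 0.63). Spag5, which encodes astrin, the binding partner of the Knstrn protein, did not share its direction: it stood at 768 and 700.5 CPM (-0.13, -0.34 to 0.07). Troap (-0.06), Hmmr (-0.07) and Nusap1 (-0.20), all of which bind spindle microtubules, had intervals that included 0.

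In the chromosomal passenger complex, which corrects faulty attachments of chromosomes, Cdca8 (borealin) had 227 and 229 UMIs, 376 and 480 CPM, at 0.35 (0.08 to 0.63). Its partners Aurkb, the kinase of the complex, at 237 and 281 CPM (0.25, -0.10 to 0.60), and Birc5 (survivin) at 404 and 357 CPM (-0.18, -0.47 to 0.11), lay on either side of 0. The checkpoint kinases Bub1 (0.20) and Bub1b (-0.06) and the kinetochore proteins Cenpe (0.11) and Cenpf (-0.08) had intervals that included 0. The 3 cytokinesis members had a summed ratio of -0.09 with an interval that included 0 (-0.25 to 0.06). In it Cep55, which brings the abscission machinery to the midbody, had 116 and 70 UMIs, 192 and 147 CPM (-0.39, -0.84 to 0.05). Cep55 was past 1.5-fold with the stricter gate (-1.40, -2.30 to -0.55), with cells thinned first (-0.79, -1.57 to -0.04) and with Leiden clusters (-0.60, -1.01 to -0.20). Prc1, which bundles midzone microtubules, was at -0.15 and Anln, the scaffold of the cleavage furrow, stood at 591 and 606 CPM (0.04, -0.19 to 0.26).

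Chromosome and DNA proteins gave the 2 members with most UMIs. Ankle1, a nuclease of the midbody that cuts chromatin bridges, had 889 and 749 UMIs, 1471 and 1571 CPM, at 0.09 (-0.05 to 0.24). Top2a, the topoisomerase that untangles sister chromatids, had 681 and 554 UMIs, 1127 and 1162 CPM, at 0.04 (-0.12 to 0.21). They ranked first and second in both libraries, an order of probe counts that need not be one of transcripts, since each gene has its own probes. Neil3, a DNA glycosylase, was lowest of all, with 113 f/f and 61 d/d UMIs, or 187 and 128 CPM, at -0.55 (-1.02 to -0.09). Mki67, which coats mitotic chromosomes and is the usual proliferation marker, had 210 and 128 UMIs, 347.5 and 268 CPM, at -0.37 (-0.70 to -0.05). A Mki67 UMI was seen in 37.1% and 23.5% of the positive cells. Such shares also depend on depth, which was lower in d/d: Top2a, with a ratio near 0, was seen in 69.7% and 61.8%. Pif1, a DNA helicase, had 178 and 185 UMIs, 295 and 388 CPM, at 0.40 (0.09 to 0.70), and Ncapg, a condensin subunit, was at 0.21 (-0.06 to 0.48).

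Across the 15 alternatives for single members, the interval of Knstrn lay above 0 in all 15, that of Kif11 in 14, of Tpx2 and Cdca8 in 13, of Kif15 and Pif1 in 11 and of Kifc1 in 7. The interval lay below 0 in 14 for Neil3, 13 for Mki67, 4 for Cep55, 3 for Spag5 and 1 for Kif14. Spag5 was at -0.45 (-0.80 to -0.10) with the stricter gate. These members were named for their ratios or UMIs, and the alternatives are other choices or scalings of cells from the same libraries. The tallies, with those of Plk1 and Ube2c above, thus give no separate support. Each member took part in choosing the cells in which it was compared. When cells were chosen for each member on the other 39, Knstrn stood at 0.56, Kif11 at 0.58, Tpx2 at 0.45, Plk1 at -0.53 and Neil3 at -0.59, the last past 1.5-fold. Mki67 stood at -0.32 (-0.66 to 0.01) in that setting, so its interval included 0. The ungated module-positive cells, 238 f/f and 274 d/d cells, gave another view of the same libraries. There 1 of 39 members was 1.5-fold higher in d/d and 0 were lower, where 12% and 14.7% of all genes counted were (26.7% in either direction). That member was Knstrn, with 127 and 189 UMIs, 328 and 544 CPM, at 0.73 (0.40 to 1.07). In the epithelial-gated positive cells Knstrn was the highest member but did not reach 1.5-fold. Of the 6 highest members 4 were above 0 in those cells and of the 6 lowest 4 were below 0. The median ratio of the 39 members there was 0.02, so about as many lay above 0 as below. A count of 4 in 6 is thus near what any 6 members would give. Kif15 (-0.22) and Pif1 (-0.51) among the highest and Kif14 (0.05) and Ube2c (0.22) among the lowest had the opposite sign.

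S phase genes, 36 genes of DNA replication outside the module, were compared within the same cells, which were chosen on the members alone. They summed to 1874 f/f UMIs (3101 CPM) and 1848 d/d UMIs (3876 CPM), and 29 of the 35 with 20 or more UMIs had ratios above 0. In all, 9 were 1.5-fold higher and 1 was lower in d/d, against 13.1% and 15% of all genes. Several of the 9 had few UMIs and intervals that included 0. Gins2 (6 and 15 UMIs, 1.66, 0.22 to 3.32) and Mcm6 (18 and 34 UMIs, 1.26, 0.39 to 2.17), both of the replicative helicase, were highest. Rrm1, of ribonucleotide reductase (130 and 66 UMIs, -0.64, -1.09 to -0.20), and Cdc45, a helicase cofactor (56 and 30 UMIs, -0.56, -1.25 to 0.11), were lowest. Per module UMI the f/f cells held 0.200 and the d/d cells 0.240 S phase UMIs, a ratio of 0.27 (0.16 to 0.37). With cells thinned before they were chosen this was 0.16 (-0.01 to 0.32).

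Per module UMI the pooled difference did not hold among cells with like numbers of module UMIs, a division made after the data were seen. The S phase UMIs per module UMI were 0.830 and 0.737 (f/f and d/d) in cells with 3 to 11 module UMIs, 0.267 and 0.178 in cells with 12 to 23, and 0.0982 and 0.0947 in cells with 24 or more. On the log2 scale the ratios were -0.17 (-0.37 to 0.03), -0.58 (-0.76 to -0.41) and -0.05 (-0.26 to 0.16), all below 0 where the pooled one was above. The S phase level in CPM differed in sign between the bins, at 0.46 (0.31 to 0.62), -0.27 (-0.43 to -0.11) and 0.07 (-0.14 to 0.27), and so was higher in d/d in the lowest bin. The libraries filled the bins differently: the lowest bin held 105 of 423 f/f and 178 of 468 d/d cells, and the highest bin 161 and 103. Within each bin the module level in CPM, by which the S phase level is divided here, was higher in d/d. It was 5685 and 8825 CPM (f/f and d/d) in the lowest bin, 13884 and 17224 in the middle and 20655 and 22420 in the highest. Depth moved with the bins, with medians of 862, 1120 and 1599 UMIs in f/f and 738.5, 902 and 1263 in d/d. The part of module level and depth was not tested.

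**Figure D4:**
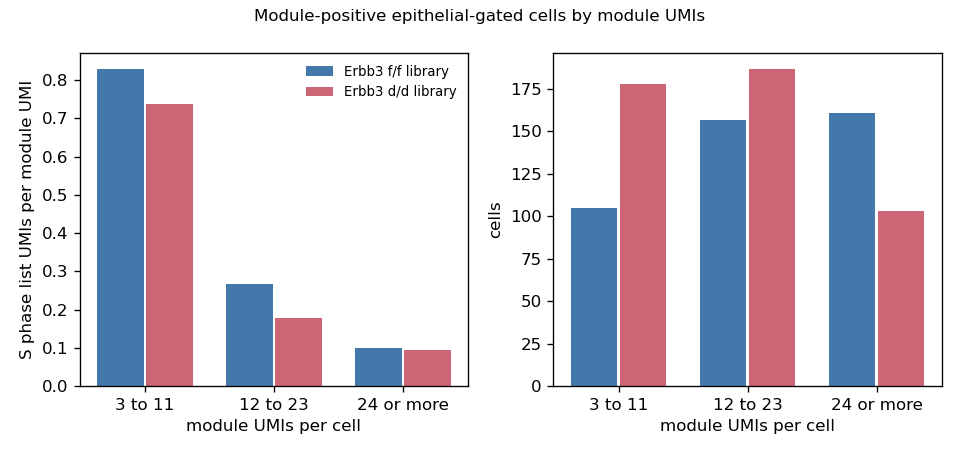
Left, S phase list UMIs per module UMI (y axis) and right, number of module-positive epithelial-gated cells (y axis), by module UMIs per cell (x axis), in the f/f (blue) and d/d (red) libraries; bars are ratios of sums and counts of cells without intervals. On the left the d/d bar is lower in each bin, and on the right d/d has 178 cells against 105 in the lowest bin and 103 against 161 in the highest.

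The bins divide the same cells as the ratios above and so give no separate support to the members named there. Within them the share of module UMIs taken by Knstrn was higher in d/d in all 3, at 5.23%, 4.45% and 5.96% against 2.52%, 3.19% and 3.95% in f/f. Kif11, Tpx2, Cdca8, Aurka and Kifc1 were also higher in all 3 bins. Plk1 was lower in all 3, at 0.673%, 0.672% and 1.24% against 1.04%, 1.14% and 1.49%, as were Cdk1, Kif14, Mki67 and Neil3. The other 29 members changed sign between bins or were not seen in every bin. These shares are given without intervals, and no like count over all genes stands beside them. The lowest bin held 675 f/f and 1338 d/d module UMIs, so a small share there rests on few UMIs. The share of Mki67 was highest in the lowest bin in both libraries, at 6.67%, 2.50% and 1.62% in f/f and 2.69%, 1.38% and 1.52% in d/d, and Ncapg had a like order, from 5.04% to 2.09% in f/f and from 3.59% to 2.24% in d/d.

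Mitotic genes outside the module were compared in the same positive cells. All 39 measured genes of this list had 20 or more UMIs. Their sum was nearly equal, at 6778 and 6638 CPM (-0.03, -0.10 to 0.04), and their median ratio was -0.10. In this list 0 genes were 1.5-fold higher and 5 were lower in d/d, against 13.1% and 15% of all genes. The lowest were Knl1, the kinetochore scaffold (73 and 29 UMIs, -0.99, -1.66 to -0.35), and Arhgap11a, a regulator of the furrow (28 and 12 UMIs, -0.88, -1.99 to 0.14). The highest were Sgo1, the guardian of centromere cohesion (64 and 75 UMIs, 0.57, 0.07 to 1.07), and its relative Sgo2a (30 and 32 UMIs, 0.43, -0.33 to 1.20). Of the 10 regulators of mitotic genes 0 were 1.5-fold apart, against 28.1% of all genes, and 10 genes are few for such a count. Tfdp1, a partner of E2F factors (0.50, 0.07 to 0.93), and Lin9, a MuvB subunit (0.23, -1.04 to 1.48), were highest, and E2f7, a repressor of the E2F family (-0.29, -0.64 to 0.05), and Rbl1, a pocket protein (-0.19, -0.68 to 0.30), were lowest. Of the 5 counted handling response genes, which respond within minutes to tissue handling, 1 was 1.5-fold higher and 2 were lower in d/d, against 13.1% and 15% of all genes. The higher one was Fos (9 and 12 UMIs, 0.76), with an interval that included 0 (-0.61 to 2.18). The lower ones were Junb (37 and 13 UMIs, -1.17, -2.20 to -0.22) and Dnajb1 (88 and 45 UMIs, -0.63, -1.18 to -0.09). The list summed to 483 and 415 CPM (-0.22, -0.49 to 0.05).

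The epithelial-gated cells were also divided by genes that mark different epithelial states in these libraries, with a cell counted where it held markers of 1 state alone. Thinned cells with Lrp2 or Slc5a11, which encode an endocytic receptor and a sugar transporter, held 3 or more module UMIs in 17.7% of 1053 f/f (15.4 to 20.1%) and 36.2% of 69 d/d cells (25.0 to 48.7%). Cells with Muc4 or Ptpn22, which encode a mucin and a phosphatase, did so at 13.8% of 87 (7.34 to 22.9%) and 52.9% of 157 (44.7 to 60.9%). For cells with a glandular marker the shares were 8.87% of 124 (4.51 to 15.3%) and 35.7% of 14 (12.8 to 64.9%). For cells without any of these markers they were 18.3% of 553 (15.1 to 21.7%) and 59.8% of 520 (55.5 to 64.1%). Cells with markers of more than 1 state stood at 18.1% of 331 (14.1 to 22.7%) and 36.4% of 22 (17.2 to 59.3%). The d/d share was the higher one in each set, with overlapping intervals in the glandular set and in the cells with markers of more than 1 state. For the first 4 sets the module level gave ratios of 0.69 (0.55 to 0.82), 1.64 (1.46 to 1.83), 1.42 (1.07 to 1.77) and 1.42 (1.35 to 1.49) in the same order. Within the module-positive cells Lrp2 had 638 f/f UMIs (1056 CPM) and 21 d/d UMIs (44.0 CPM), a ratio of -4.58 (-5.29 to -3.96). Slc5a11 had 104 and 22 UMIs, at -1.90 (-2.63 to -1.23). Muc4 had 40 (66.2 CPM) and 66 (138 CPM), at 1.06 (0.48 to 1.67). Ptpn22, the other marker of the Muc4 set, was near equal, with 48 and 42 UMIs, at 0.15 (-0.48 to 0.78). Of the glandular markers, Syn2 had 30 and 4 UMIs (-2.57, -4.53 to -1.06) and Cxcl15 had 22 and 3 (-2.53, -4.92 to -0.80). The others (Foxa2, Spink1, Wfdc3, Prss28 and Prss29) had at most 10 UMIs a library. Since several of these markers differed between the libraries, a set need not hold like cells in both.

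**Figure D5:**
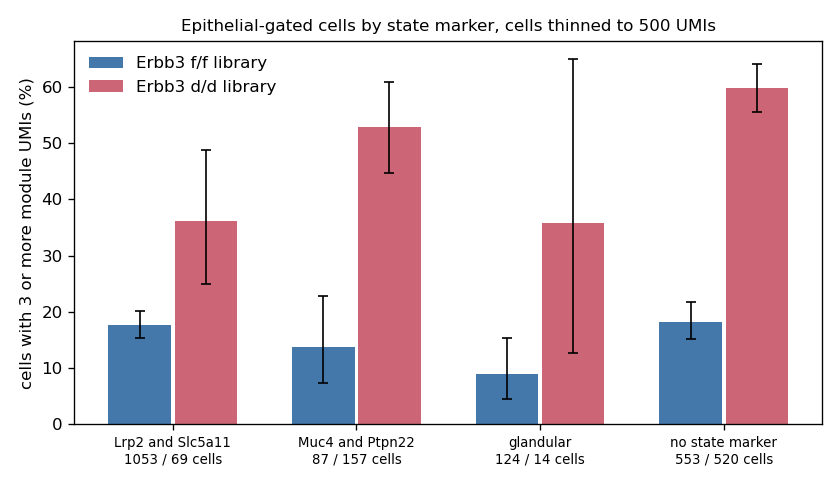
Share of epithelial-gated cells (percent, y axis) with 3 or more module UMIs after thinning to 500 UMIs, by the state marker they held (x axis, with f/f and d/d cell numbers), in the f/f (blue) and d/d (red) libraries; whiskers are 95% Clopper-Pearson intervals. The d/d bar is higher in each set, such as 36.2% against 17.7% in cells with Lrp2 or Slc5a11 and 59.8% against 18.3% in cells without a state marker, and the glandular set holds 14 d/d cells.

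In stromal-gated cells 16 of the 40 members had 20 or more UMIs over both libraries, and 15 of these were at least 1.5-fold higher in d/d, where 13.5% of the 9616 genes counted were. Their median ratio was 1.19, against -0.07 over all genes. The members were chosen with earlier results of these libraries known, so these counts add no separate support. Top2a had 41 and 22 stromal UMIs (1.40) and Ankle1 34 and 30 (2.11). The 44 f/f and 25 d/d module-positive stromal-gated cells, counted without thinning, held a median of 5 and 7 module UMIs, fewer than the 19 and 14 of the epithelial-gated ones. Their epithelial markers summed to 796 and 1488 CPM, against 518 and 730 CPM in the other stromal-gated cells, and their median depths were 1321.5 and 1299 UMIs against 730.5 and 684. The part of these markers and depths in the stromal result was not tested.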

How the data were processed

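Per the file headers, the deposited values are UMI counts per gene and barcode from Cell Ranger 9.0.0, with no normalisation, for barcodes called as cells. Per the labels' protocols, tissue was fixed before dissociation and read with a probe-based Flex assay. The submitters' processing notes name mm10 and GRCm39 without their roles. Cells with at least 200 genes and at most 10% mitochondrial UMIs were gated on markers of 7 classes (Python 3.11.15, numpy 2.4.6, scipy 1.17.1). Counts were summed per library and class and expressed as CPM. Intervals of sums are exact Poisson, of shares Clopper-Pearson, of ratios exact conditional binomial, and of the S phase ratio normal on the log scale. No test was run, as there is 1 library per genotype, and the interval code was tested on simulated data. Scrublet called 2 cells a library as doublets, too few to rely on, so cells of highest score were left out as an alternative. Other alternatives were Leiden clusters (scanpy 1.11.5, leidenalg 0.10.2), edgeR 4.0.16 TMM scaling, and other filters, gates, thresholds and thinning. Members and lists were chosen with earlier results of these data known. Named genes are the 6 highest, 6 lowest and 6 most counted members, and the 2 highest and 2 lowest of each of the 3 other cell cycle lists. The other members are given in brief, and Fos, Junb and Dnajb1 were named after their values were seen.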

Additional observations from a re-analysis of the deposited data

Results flagged for a closer look

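Cells that passed the filter but not the gate were outside the comparisons between classes, and their module level in d/d, at 5012 CPM (4848 to 5179), was above the 2024 CPM (1961 to 2087) of the f/f ungated cells. The 295 d/d barcodes removed by the filter on genes and mitochondrial share, with 1154167 UMIs, held the module at 2752 CPM (2657 to 2849), above the 1360 CPM (1298 to 1425) of the 280 removed f/f barcodes with 1301796 UMIs.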

How the results depend on the processing

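No paired analysis was possible because each genotype has 1 library, and no replicate could be left out. The module level in epithelial-gated cells was higher in d/d in all 11 alternatives, with log2 ratios of 0.95 with all deposited barcodes, 1.49 with the stricter gate, 1.23 with Leiden clusters and 1.48 without the 5% of cells with most UMIs lying outside its interval. The difference in module-positive shares stayed positive in all 13, moving to 47.3 points with thinning to 1000 UMIs and 33.9 points with 5 or more module UMIs. The stromal-gated log2 ratio was positive in all 10, at 1.06 with all barcodes, 1.61 with at most 5% mitochondrial UMIs, 1.05 with the stricter gate and 1.57 with Leiden clusters. S phase UMIs per module UMI stayed higher in d/d in all 12, at 0.54 with all barcodes and 0.16 when cells were thinned first. The members past 1.5-fold numbered 6 with the stricter gate, 5 with cells thinned first, 2 with at most 5% mitochondrial UMIs, Leiden clusters, the highest doublet scores left out, shared barcodes left out, and 2 or 5 or more module UMIs, and 1 without the cells with most UMIs, with the gate lacking Igha and Jchain, with shares of module UMIs and with cells chosen on the other 39 members. The share of all genes past 1.5-fold is not given for these settings. Kifc1 turned to -0.062 with cells thinned first. The cause of these moves was not tested. The gate lacking Igha and Jchain and the removal of shared barcodes were chosen after seeing the data. Depth limits the classes other than epithelial and stromal, and single members in stromal-gated cells.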
